A study of Rattus norvegicus with 30 samples.

Results

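The response of rat hepatocytes to phenobarbital (PB) was compared between chimeric mice with rat hepatocytes, for which no label gives a change of the constitutive androstane receptor (CAR), and rats with a knockout of CAR. The quantity compared was a difference of responses. For each gene, the change from control diet to PB diet in the chimeric mice was taken, and the same change in CAR KO rats was subtracted from it. A difference above 0 therefore means a larger rise, or a smaller fall, on PB in the chimeric mice. The comparison used 22 of the 30 liver arrays of the series, chosen by their labels alone. They were 7 arrays of male chimeric mice on control diet (0 ppm PB), 7 of male chimeric mice on 1000 ppm PB, and 4 of male CAR KO rats on each of the same diets, all after 7 days of feeding. The other 8 arrays, 4 per diet of male Crl:CD(SD) rats, here called SD rats, took no part in the difference and are set beside it.

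PB, a barbiturate, induces the drug-metabolising enzymes of the liver. It leads to the release of CAR, a nuclear receptor encoded by Nr1i3, from the cytoplasm, and CAR then binds DNA together with the retinoid X receptor and raises transcription of cytochrome P450, conjugation and transport genes. The pregnane X receptor (PXR, Nr1i2) binds related sites and shares many of the same target genes, and PB also activates PXR to some degree. In rodents PB also brings about liver growth and hepatocyte proliferation.

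Each kind of animal limits what the difference can show. Chimeric livers keep cells of the mouse host, and the arrays hold rat probes, so rat RNA and cross-hybridising mouse RNA of the same gene cannot be told apart. The sources used here do not give the share of rat hepatocytes in each liver. In whole liver, fewer cells of a type and less RNA per cell cannot be told apart. Levels below are log2 of the processed scanner signal minus the same array's 75th percentile of it, so that a level of 0 is the signal under which 75% of that array's probes lie. Levels of different genes come from different probes and are not compared with each other.

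The arrays lay on separate slides by model, and partly by diet. Slide 1 held all 7 chimeric controls and chimeric PB replicate 1, and slide 2 held chimeric PB replicates 2 to 7. Slide 4 held the CAR KO arrays, with control diet in row 1 and PB in row 2, so that row and PB cannot be told apart there. The SD arrays on slide 3 had the same layout and the same limit. For chimeric PB replicates 2 to 7, slide and PB cannot be told apart. PB replicate 1 is the only PB array that shares a slide with the chimeric controls, and its value is given for the genes described array by array. Across probes, PB replicate 1 correlated with the 7 controls at 0.974 to 0.985 and with the other 6 PB arrays at 0.972 to 0.982, while those 6 correlated with the controls at 0.939 to 0.976. The share of probes well above background averaged 55.3% ± 2.48 in chimeric controls, 53.0% ± 1.70 in chimeric PB (SD, n = 7 each), 65.9% ± 1.11 in CAR KO controls and 62.7% ± 1.81 in CAR KO PB (SD, n = 4 each). Arrays within a group differed more in chimeric mice than in CAR KO rats, with a median SD per gene of 0.29 and 0.34 in the chimeric groups and 0.14 and 0.15 in the CAR KO groups.

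The receptor gene itself was read on every array. Nr1i3 levels were 1.13, 1.30, 0.69 and 1.35 in CAR KO controls and 0.50, -0.21, 1.04 and 1.15 in CAR KO rats on PB. In chimeric controls they ran from 0.98 through a median of 1.32 to 2.02, and on PB from 0.85 through 1.16 to 1.86, with PB replicate 1 at 1.16. SD controls read 0.91, 1.88, 0.76 and 1.14, and SD rats on PB 0.31, 1.03, 0.62 and 0.24. The CAR KO arrays overlapped those of the other animals, except for 1 CAR KO PB array at -0.21 that lay below them all, and the difference of responses, 0.36 ± 0.35 (SE), had an adjusted p of 0.547. The sources used here do not say whether the probe lies inside the deletion, so this signal does not check the knockout. By another Nr1i3 probe the difference was 0.03 (adjusted p = 0.983). Nr1i2, which encodes PXR, had a difference of 0.49 with an adjusted p of 0.243.

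Of 17981 genes and unnamed transcripts tested with limma, 2530 (14.1%) had a difference with an adjusted p under 0.05. Of these, 1047 (5.82%) were higher in the chimeric response and 1483 (8.25%) were lower, and the median difference over everything tested was 0.04. In the same fit, 7961 (44.3%) changed on PB in chimeric mice, 3561 higher (19.8%) and 4400 lower (24.5%), and 31 (0.172%) changed in CAR KO rats, 20 higher (0.111%) and 11 lower (0.0612%). Among the 2530, 2435 had a chimeric response past the test in the direction of the difference, and 30 had a CAR KO response past it. Scaling each array to its median instead of its 75th percentile moved the median difference over all genes from 0.04 to 0.28 and the share of calls that were higher from 41.4% to 64.7%, and that of the chimeric response from 44.7% to 71.0%. The count also depended on single arrays. It was 3941 without chimeric PB replicate 1 and 1794 without CAR KO PB replicate 1.

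Higher and lower differences read differently on the 2 slides of the chimeric PB arrays. The 1047 higher ones had a median change of 0.77 in PB replicates 2 to 7 and of 0.49 in PB replicate 1 on the controls' own slide. For the 1483 lower ones the medians were -1.51 and -0.36. The change of PB replicate 1 was under 50% of that of the other 6, or had the opposite sign, for 343 (32.8%) of the higher, 1125 (75.9%) of the lower and 10274 (57.1%) of all tested. Of the lower ones, 98 (6.61%) were well above background on every array of slide 1 and on none of slide 2. Over all 17981 tested this held for 149. By the layout such a probe reads as a fall on PB in chimeric mice, so the higher ones are not compared in this. Probes with no gene name made up 63.8% of the lower, 26.8% of the higher and 40.8% of all tested. With slide as a block in the fit, an alternative chosen after seeing the data, the chimeric response rests on PB replicate 1 against the 7 controls of slide 1, and 134 differences (0.745%) passed, 100 higher (0.556%) and 34 lower (0.189%). In 90 (0.501%) the difference passed in the same direction in both fits, 67 of them higher and 23 lower, and 59 of the 90 have a gene name.

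**Figure D1:**
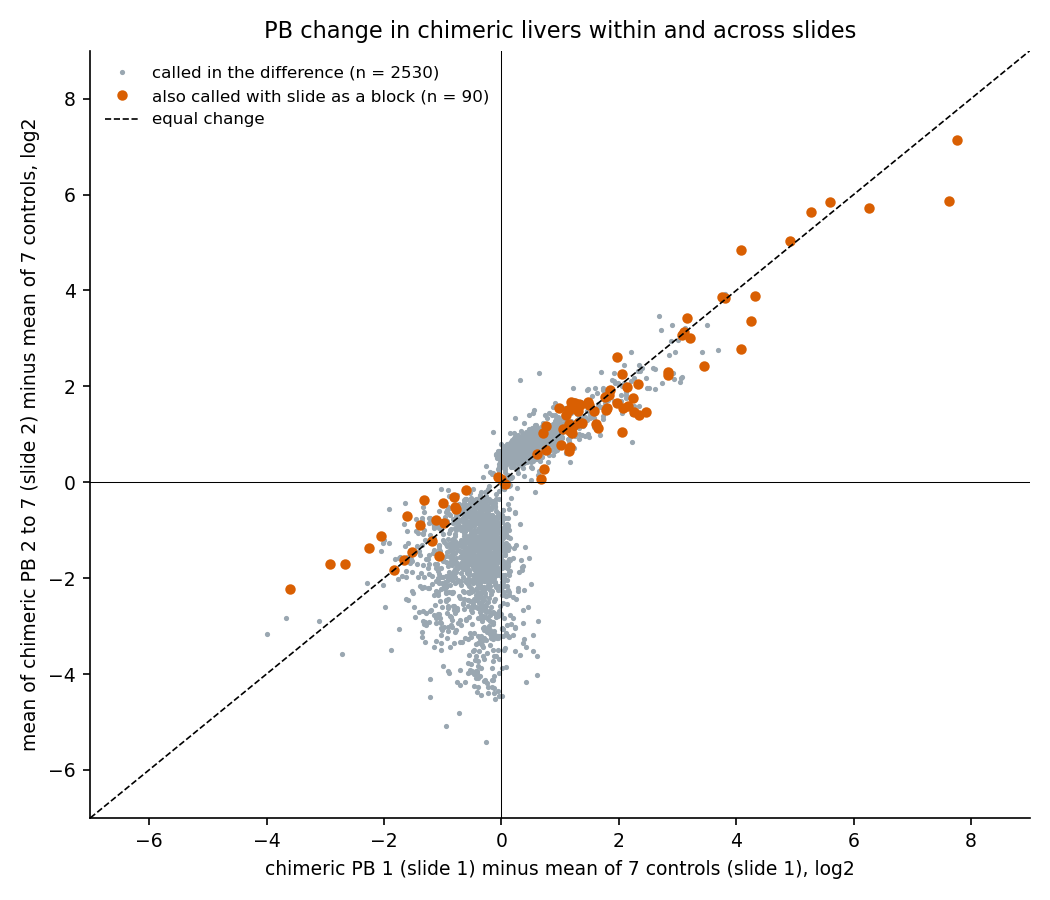
Change from the mean of the 7 chimeric controls (log2) in PB replicate 1, which shares their slide, against the mean change in PB replicates 2 to 7, for the 2530 genes and transcripts called in the difference (grey) and the 90 called in the same direction with slide as a block (orange). Many of the 1483 lower ones lie near 0 on the axis of PB replicate 1 while reaching far below 0 on the other, whereas the 90 called in both fits, which were chosen in part by the change in PB replicate 1, lie nearer the dashed line of equal change.

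Cytochrome P450 genes of the CYP2B and CYP3A families were among the higher differences. The gene lists used from here on hold named genes only. Of all 10645 named genes tested, 766 had a higher difference and 537 a lower one, with a median of 0.11. In the chimeric response 2605 of them rose and 1890 fell. Of 12 tested P450 genes responsive to CAR or PXR, 6 had a higher difference and none a lower one, with a median difference of 0.70, and 3 passed with slide as a block. In SD rats 4 of the same 12 rose on PB and none fell. Cyp2b2, the classical PB-inducible P450, had levels in chimeric controls from -0.01 through 0.92 to 1.63 and on PB from 5.86 through 6.54 to 7.35, with PB replicate 1 at 6.36. Its levels were 2.74, 2.89, 2.90 and 2.94 in CAR KO controls and 2.65, 2.71, 2.83 and 2.91 in CAR KO rats on PB. All 7 chimeric PB arrays lay above all 7 controls, while the CAR KO groups overlapped. Cyp2b2 rose 55.9-fold in chimeric mice and changed by -0.09 ± 0.30 on the log2 scale in CAR KO rats. By another probe its difference was 7.73 ± 0.23, and by the probe used here it was 5.89 ± 0.37 (SE, adjusted p = 3.93e-09). The block by slide left the difference at 5.68 (adjusted p = 7.37e-06). In SD rats the change was 4.03 (adjusted p = 1.11e-04). Cyp2b21, a close relative, was not well above background in any chimeric control, at -6.68 to -6.26, and read from -0.54 through 0.84 to 1.51 on PB, with PB replicate 1 at 1.28. It was well above background on 0 of 4 CAR KO controls and on 1 of 4 CAR KO PB arrays, so its difference has no size. It was tested only because of its level in the chimeric PB group, and its p is not read as support. The 6 higher P450 genes, the 3 that passed with slide as a block and the list median above include it. Probes of related genes may share signal, which was not tested.

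Among CYP3A genes, whose enzymes oxidise steroids and many drugs, Cyp3a23-3a1 had the difference best measured. Its levels ran from 6.40 through 6.84 to 7.17 in chimeric controls and from 8.46 through 8.62 to 8.87 on PB, with PB replicate 1 at 8.62. CAR KO controls read 5.56, 5.45, 5.10 and 5.47, and CAR KO rats on PB 5.05, 5.31, 5.72 and 5.61. The chimeric groups did not overlap and the CAR KO groups did. The difference was 1.88 ± 0.21 (adjusted p = 1.33e-05), with a rise of 3.76-fold in chimeric mice and a change of 2.10 in SD rats (adjusted p = 0.00374). Cyp3a62 had a difference of 1.58 (adjusted p = 0.00188), made up of a rise of 0.96 in chimeric mice and a change of -0.62 in CAR KO rats that did not pass the test. Cyp3a2 had a difference of 1.14 (adjusted p = 0.0466), and neither its chimeric change of 0.51 nor its CAR KO change of -0.63 passed. The Cyp3a2 call was lost in 17 of the 22 fits that each left out 1 array, with an adjusted p of up to 0.122. Cyp3a9 had a difference of -0.50 (adjusted p = 0.304). Cyp2c6v1 rose by 1.0 in chimeric mice and had a difference of 0.81 (adjusted p = 0.0141), and its change in SD rats was 1.64 (adjusted p = 0.00374). With slide as a block the adjusted p of Cyp3a62, Cyp3a2 and Cyp2c6v1 were 0.117, 0.594 and 0.355.

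Promoter sequence from RefSeq (build GRCr8, 250 bases before to 50 after the start) was found for 40 of the 49 named genes with a higher difference in both fits. CAR and PXR, each paired with the retinoid X receptor, bind 2 copies of a hexamer close to AGTTCA or AGGTCA. On either strand, AGTTCA lay in 3966 of 27457 promoters (14.4%) and in 5 of those 40, and AGGTCA in 4305 (15.7%) and in 9 of the 40. The direct repeat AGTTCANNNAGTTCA was in 2 promoters of the 27457 (0.00728%), those of Cyp3a23-3a1 and Cyp3a2. With a spacer of 4 or 5 bases the direct repeats AGTTCANNNNAGTTCA and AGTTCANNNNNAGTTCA were in 4 (0.0146%) and 3 (0.0109%), the latter including Cyp26a1, and the everted repeat TGAACTNNNNNNAGTTCA was in 0. The everted repeat TGAACTNNNNNNNNAGTTCA was in 1 (0.00364%), that of Abcc2, the export pump gene described below. These 3 promoters are shown with the hexamers of the repeat in capitals, read as TGAACT where they lie on the opposite strand. The repeat starts 144 bases before the start of Cyp3a23-3a1 (chr12:14398754-14399053, minus strand), 131 before that of Cyp3a2 (chr12:14343808-14344107, minus strand) and 191 before that of Abcc2 (chr1:252613625-252613924, plus strand). A match is a description of the letters and says nothing of binding.
Cyp3a23-3a1: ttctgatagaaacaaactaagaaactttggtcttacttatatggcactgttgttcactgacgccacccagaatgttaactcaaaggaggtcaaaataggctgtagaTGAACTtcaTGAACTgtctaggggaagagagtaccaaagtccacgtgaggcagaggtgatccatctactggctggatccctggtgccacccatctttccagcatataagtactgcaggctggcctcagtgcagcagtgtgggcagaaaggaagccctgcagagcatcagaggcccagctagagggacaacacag
Cyp3a2: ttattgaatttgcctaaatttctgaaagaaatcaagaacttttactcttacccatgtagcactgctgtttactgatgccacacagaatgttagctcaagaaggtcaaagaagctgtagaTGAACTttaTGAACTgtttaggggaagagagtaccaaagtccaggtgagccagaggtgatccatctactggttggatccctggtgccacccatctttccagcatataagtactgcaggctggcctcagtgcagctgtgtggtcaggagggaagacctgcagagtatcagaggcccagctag
Abcc2: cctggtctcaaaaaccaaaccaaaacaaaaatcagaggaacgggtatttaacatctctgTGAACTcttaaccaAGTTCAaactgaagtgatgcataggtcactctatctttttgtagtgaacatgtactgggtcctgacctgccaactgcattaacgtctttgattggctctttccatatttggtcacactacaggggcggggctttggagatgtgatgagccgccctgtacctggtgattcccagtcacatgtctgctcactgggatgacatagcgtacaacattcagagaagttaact

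**Figure D2:**
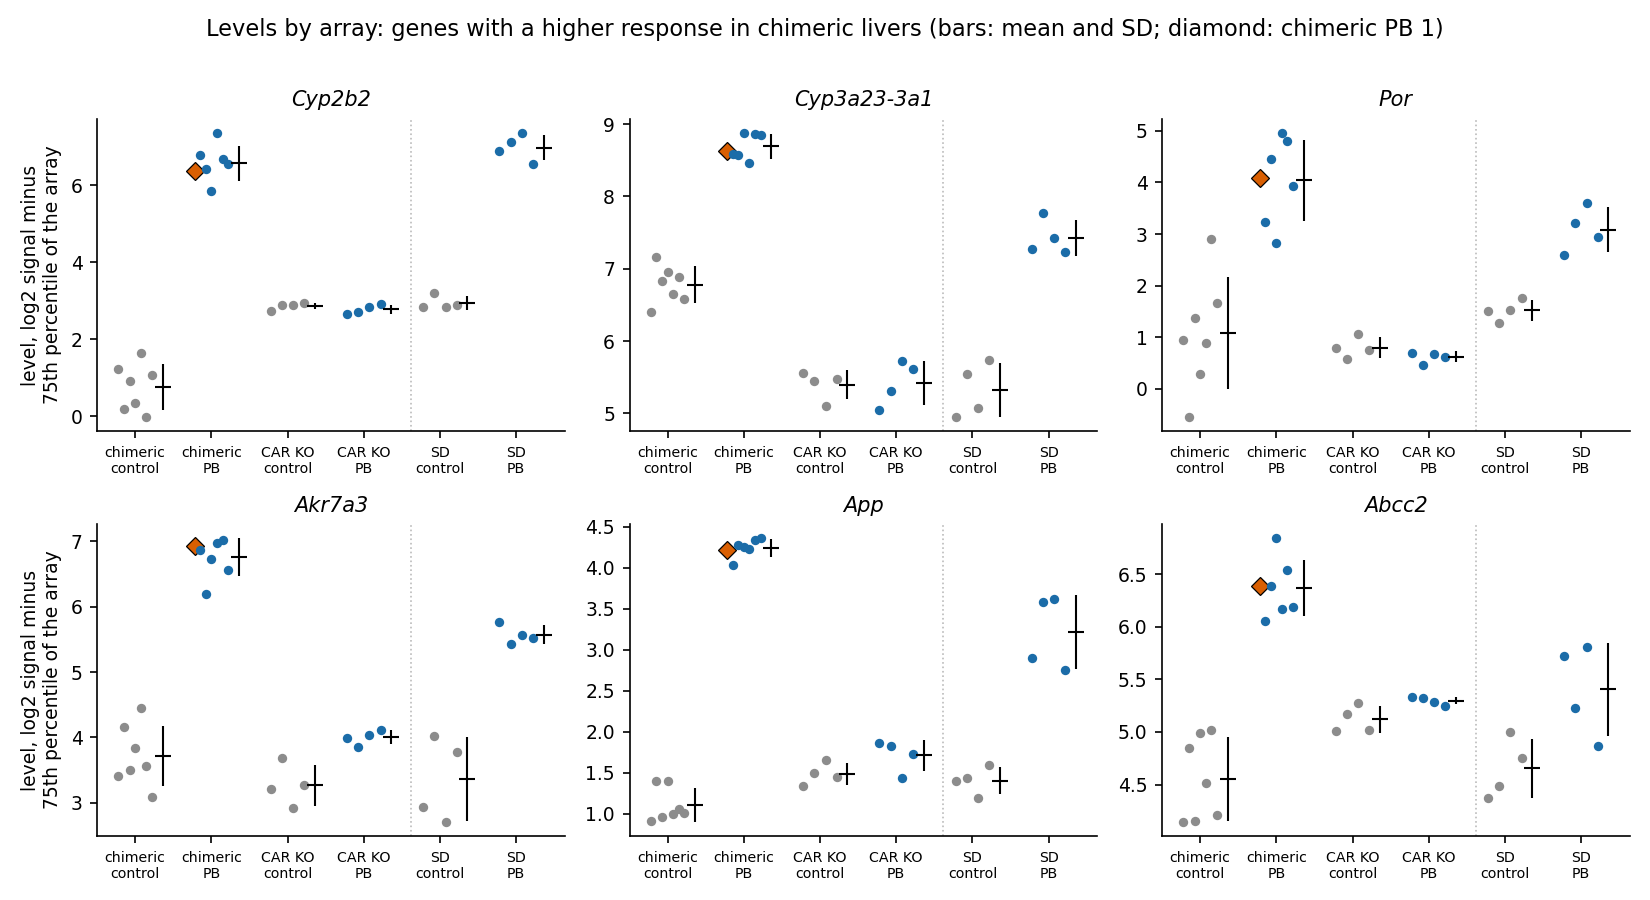
Levels (log2 processed signal minus the array's 75th percentile) of Cyp2b2, Cyp3a23-3a1, Por, Akr7a3, App and Abcc2, 1 point per array, in chimeric mice, CAR KO rats and SD rats on control diet and PB, with chimeric PB replicate 1 as a diamond and bars for the mean and SD. For Cyp2b2, Cyp3a23-3a1, Akr7a3, App and Abcc2, every chimeric PB array, replicate 1 included, lies above every chimeric control, and the 2 CAR KO diets lie close together by comparison.

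Genes for electron supply and heme, which P450 enzymes need to work, followed with 4 of 13 tested genes higher, none lower and a median difference of 0.54. Por encodes the reductase that passes electrons to every microsomal P450. Its chimeric levels ran from -0.55 through 0.95 to 2.90 on control diet and from 2.82 through 4.08 to 4.96 on PB, with PB replicate 1 at 4.08. CAR KO controls read 0.80, 0.57, 1.06 and 0.75, and CAR KO rats on PB 0.70, 0.47, 0.68 and 0.62. The lowest chimeric PB array lay just under the highest control, and the CAR KO groups overlapped. The Por difference was 3.14 ± 0.65 (adjusted p = 0.00363), and with slide as a block it was 3.18 with an adjusted p of 0.181. Alas1, the first and rate-limiting step of heme synthesis, had a difference of 1.33 (adjusted p = 0.00696), and Cyb5a, the cytochrome b5 that assists P450, 0.86 (adjusted p = 0.00238). With slide as a block none of the 13 passed. All 3 genes rose in SD rats, by 1.57, 1.41 and 0.73 (adjusted p = 0.0167, 0.013 and 0.0118).

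Hydrolases, aldehyde and flavin enzymes gave 10 higher and 1 lower difference among 26 tested, with a median of 0.77, and 2 passed with slide as a block. Akr7a3, an aldo-keto reductase that clears aflatoxin dialdehyde, read from 3.09 through 3.56 to 4.45 in chimeric controls and from 6.20 through 6.87 to 7.02 on PB, with PB replicate 1 at 6.93. CAR KO controls read 3.21, 3.68, 2.91 and 3.27, and CAR KO rats on PB 3.99, 3.86, 4.04 and 4.11. Here the CAR KO groups did not overlap either, but their change of 0.73 did not pass the test (adjusted p = 0.55 in the fit of 22 arrays). The difference was 2.31 ± 0.30 (adjusted p = 7.88e-05) and, with slide as a block, 2.49 (adjusted p = 0.00639). Cbr1, a carbonyl reductase, also passed in both fits, with differences of 1.09 and 1.04 (adjusted p = 2.12e-04 and 0.0256).

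Ephx1, the microsomal epoxide hydrolase, had a difference of 2.55 ± 0.39 (adjusted p = 4.68e-04) after a rise of 8.68-fold in chimeric mice, with a change of 2.72 in PB replicate 1. Its levels in CAR KO rats were 3.55, 3.70, 3.24 and 3.51 on control diet and 4.22, 4.02, 3.99 and 4.03 on PB. The CAR KO groups of Ephx1 did not overlap, with their own SD at 0.19 on control diet and 0.10 on PB. Their change of 0.56 did not pass in the fit that shares its spread with the chimeric arrays. The carboxylesterase gene Ces2c showed the same order, with -0.45, -0.38, 0.04 and -0.37 on control diet and 1.32, 0.37, 0.18 and 0.55 on PB in CAR KO rats, a change of 0.90 (adjusted p = 0.73) that lay beside a rise of 3.31 in chimeric mice and 3.50 in their PB replicate 1. Its difference was 2.41 (adjusted p = 0.00142). For the related Ces2j the CAR KO change was 1.39 (adjusted p = 0.34) and the difference 1.48, with an adjusted p of 0.0504. Aldh1a1, which oxidises retinaldehyde, rose by 2.39 in chimeric mice and had a difference of 1.72 (adjusted p = 0.00498). Without the slide block Ephx1, Ces2c and Aldh1a1 passed, and with it their adjusted p were 0.0926, 0.0607 and 0.217.

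Conjugation and export genes moved in part. In glucuronidation, 8 of 13 tested genes had a higher difference, none a lower one, and the median was 0.68. Only Ugt2b7 of the 13 passed with slide as a block. Ugt2b7 was not well above background in any chimeric control and was so on all 7 PB arrays, where it read from -3.34 to -1.92 with PB replicate 1 highest. It was well above background on 2 of 4 CAR KO controls and 1 of 4 CAR KO PB arrays. Its difference was at least 2.29, a bound that rests partly on CAR KO signals below that mark. Ugt2b7 was tested only because of its level in the chimeric PB group, and its p is not read as support. The 8 higher glucuronidation genes and their median include it. The transferase Ugt2b1 had a difference of 1.62 (adjusted p = 0.0115), and Ugt2b35 0.92 (adjusted p = 3.52e-04). Ugdh, which makes the sugar donor UDP-glucuronic acid, had a difference of 0.85 (adjusted p = 0.00234), and Slc35d1, which carries it into the endoplasmic reticulum, 0.71 (adjusted p = 0.00635), although another probe of Slc35d1 gave 0.23 (adjusted p = 0.68).

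Of 22 glutathione transferase genes, 4 had a higher difference and none a lower one, with a median of 0.32, and none passed with slide as a block. Gstm3 had chimeric control levels from -3.94 through -2.27 to -0.87 and PB levels from 0.82 through 1.42 to 2.69, with PB replicate 1 at 1.42. In CAR KO rats they were -2.88, -2.39, -3.61 and -2.43 on control diet and -2.96, -3.47, -3.01 and -2.43 on PB. The chimeric groups did not overlap and the CAR KO groups did, and the difference was 4.04 ± 0.65 (adjusted p = 7.86e-04). Gstm1 had a difference of 2.10 (adjusted p = 0.00554) and Mgst2 of 1.14 (adjusted p = 0.00214). Gsta4 had a difference of 0.64 (adjusted p = 0.023) that was 0.16 with slide as a block. Without CAR KO control replicate 4 its adjusted p was 0.0501. None of 9 sulfotransferase genes passed, their median was -0.42, and 4 were lower under quantile normalization.

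Of 19 drug and bile acid transporter genes, 4 had a higher difference and none a lower one, with a median of 0.33, and only Abcc2 passed with slide as a block. Abcc2, which exports conjugates into bile, read from 4.14 through 4.51 to 5.02 in chimeric controls and from 6.06 through 6.39 to 6.84 on PB, with PB replicate 1 at 6.39. CAR KO controls read 5.01, 5.17, 5.27 and 5.02, and CAR KO rats on PB 5.33, 5.32, 5.29 and 5.25. The lowest CAR KO PB array lay just under the highest CAR KO control, while the chimeric groups were apart. The Abcc2 difference was 1.64 ± 0.25 (adjusted p = 4.40e-04), and 1.66 with slide as a block (adjusted p = 0.0344). Its change in SD rats was 0.75 (adjusted p = 0.161). Abcc3, the pump of the blood side, rose by 3.44 in chimeric mice, where 5 of 7 controls and all PB arrays measured it. It was well above background on 0 of 4 CAR KO controls and on 2 of 4 CAR KO PB arrays, and its difference did not pass (adjusted p = 0.0815).

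Slc22a8, an organic anion transporter, had a difference that came mainly from the CAR KO side, with a change in chimeric mice of -0.39 (adjusted p = 0.37). In CAR KO rats it read 5.43, 5.55, 3.94 and 5.67 on control diet and 1.45, 3.23, 4.25 and 3.19 on PB. CAR KO control replicate 3 was the low control and lay under 1 PB array. The CAR KO change was -2.12 (adjusted p = 0.061) and the difference 1.73 (adjusted p = 0.0451), a call lost in 15 of the 22 fits that left out 1 array, with an adjusted p of up to 0.111. Ltc4s, which makes leukotriene C4, had a rise of 1.36 in chimeric mice beside a CAR KO change of -1.95 (adjusted p = 0.12), for a difference of 3.31 (adjusted p = 0.00145, and 0.187 with slide as a block).

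NRF2-responsive genes, which serve defence against oxidants, gave 10 higher and no lower difference among 23, with a median of 0.89. Akr7a3 and Ephx1 are also on that list. Gsr, which keeps glutathione reduced, read from -1.59 through -1.47 to -1.21 in chimeric controls and from 0.03 through 0.21 to 0.52 on PB, with PB replicate 1 the lowest. In CAR KO rats it read -1.13, -1.05, -1.33 and -1.27 on control diet and -1.07, -0.82, -1.09 and -1.08 on PB. The chimeric groups were far apart and the CAR KO groups overlapped. The difference was 1.46 ± 0.15 (adjusted p = 6.33e-06) and, with slide as a block, 1.30 (adjusted p = 0.00375), and the change in SD rats was 1.06 (adjusted p = 0.0139). Me1, malic enzyme, and Blvrb, biliverdin reductase B, had differences of 2.05 and 0.99 (adjusted p = 0.00182 and 0.00105) and did not pass with slide as a block. By other probes their differences were 2.24 and 0.56 without the block (adjusted p = 1.71e-04 and 0.014).

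Among lipid genes, the counts differed by pathway. Of 25 cholesterol synthesis genes 6 had a higher difference and none a lower one, with a median of 0.74, and 18 of the 25 rose in the chimeric response. Under median scaling 12 of them were higher. Lss, lanosterol synthase, had a difference of 1.33 (adjusted p = 0.00249), Msmo1, a sterol C4-methyl oxidase, 1.18 (adjusted p = 0.0042) and Mvd 1.19 (adjusted p = 0.0168). None of the 25 passed with slide as a block. Of 40 genes of fatty acid oxidation 7 had a higher difference, among them the peroxisomal thiolase Acaa1b at 1.20 (adjusted p = 9.53e-04, and 1.16 with an adjusted p of 0.122 by another probe) and the pantetheinase Vnn1 at 1.81 (adjusted p = 0.00316). None of the 40 passed with slide as a block. The median change of this list was -0.08 in PB replicate 1 and 0.24 in PB replicates 2 to 7. In lipogenesis 3 of 19 genes were higher and 1, Gpam, was lower. The Gpam difference of -1.55 (adjusted p = 0.0382) was lost under median scaling, and in 12 of the 22 fits that left out 1 array with an adjusted p of up to 0.0848.

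Lpl, lipoprotein lipase, stood with Cyp2b2 at the top of the higher differences. It was not well above background in any chimeric control, at -7.0 to -4.52, and was so on all 7 PB arrays, at -0.61 through -0.06 to 0.43 with PB replicate 1 at 0.41. CAR KO rats read -3.61, -3.39, -3.17 and -4.10 on control diet and -3.88, -3.45, -4.15 and -3.32 on PB. The difference was at least 5.14, with the chimeric controls read at the lowest signal called well above background (adjusted p = 2.76e-07, and 4.40e-05 with slide as a block). With normexp background correction, which lifts dim signals by an offset, the fitted difference was 2.37. The change in SD rats was 1.20 (adjusted p = 0.0931).

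Replication and mitosis genes gave 9 higher and no lower difference among 39 tested, with a median of 0.69. In the chimeric response 27 rose and 1 fell, and in SD rats 4 rose and 1 fell. The median change was 0.79 in PB replicate 1 and 0.61 in the other 6. Under median scaling 17 were higher, and with normexp background correction 4. Tk1, thymidine kinase, read from -0.45 through -0.19 to 0.08 in chimeric controls and from 1.06 through 1.47 to 1.68 on PB, with PB replicate 1 at 1.20. CAR KO rats read -0.38, -0.46, -0.61 and -0.68 on control diet and -0.61, -0.81, -0.49 and -0.42 on PB, with overlap. The Tk1 difference was 1.61 ± 0.19 (adjusted p = 1.92e-05), and 1.38 with slide as a block (adjusted p = 0.0119), where it was the only one of the 39 to pass. Gins1 and Kif11, of the replication fork and the mitotic spindle, had differences of 1.55 and 1.54 (adjusted p = 0.00475 and 0.00396), and only 2 of 7 chimeric controls and 1 of 4 CAR KO PB arrays measured Kif11. Gadd45b, a stress gene and known CAR target in mouse liver, had a difference of 2.05 (adjusted p = 0.0268), lost in 3 of the 22 fits that left out 1 array with an adjusted p of up to 0.0584, and with slide as a block (adjusted p = 0.528). Cdca3 had a difference of 3.42 (adjusted p = 0.036), lost in 8 of those fits with an adjusted p of up to 0.0915, and 4 of 7 chimeric controls measured it. Ccnd1, cyclin D1, had a difference of 0.54 (adjusted p = 0.368).

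Some of the highest differences lay outside the drug-metabolism lists. App, the amyloid precursor protein gene, had the smallest adjusted p of any named gene by the 1 probe used for each. It read from 0.92 through 1.0 to 1.40 in chimeric controls and from 4.03 through 4.25 to 4.36 on PB, with PB replicate 1 at 4.22. In CAR KO rats it read 1.34, 1.50, 1.65 and 1.44 on control diet and 1.86, 1.82, 1.43 and 1.72 on PB, which overlapped. The difference was 2.91 ± 0.16 (adjusted p = 7.11e-10, and 9.64e-07 with slide as a block), and App rose in SD rats by 1.81 (adjusted p = 0.0104). Zdhhc2, a palmitoyltransferase, had a difference of 3.44 ± 0.31, the chemokine gene Cxcl9 3.20 ± 0.26 and Tuba3a, an alpha-tubulin, 2.79 ± 0.33 (adjusted p = 6.51e-07, 2.76e-07 and 2.52e-05). All 3 passed with slide as a block (adjusted p = 5.55e-04, 1.35e-04 and 0.00375). Zdhhc2 and Cxcl9 also rose in SD rats, by 1.50 and 1.61 (adjusted p = 0.00861 and 0.0241). Cyp26a1, which degrades retinoic acid, had a difference of 3.47 (adjusted p = 0.00217) that was 2.80 with an adjusted p of 0.251 with slide as a block.

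The CAR KO arm contributed 31 changes of its own, and 18 of these had 1 diet group with no array well above background. The number was 10 without CAR KO PB replicate 1, 11 without PB replicate 2 and 19 without control replicate 2. With the CAR KO arrays fitted apart, limma called 0 genes, although 3128 had an unadjusted p under 0.05. With array weights by model it called 576. Among the named genes Pfkfb1, a liver enzyme that sets the glycolytic signal fructose 2,6-bisphosphate, fell in CAR KO rats, from 3.33, 3.26, 3.49 and 3.30 on control diet to 1.88, 1.90, 2.29 and 2.63 on PB. In chimeric mice it rose, from 4.01 through 4.40 to 4.85 on control diet to 4.68 through 5.0 to 5.18 on PB, with PB replicate 1 at 5.0. The CAR KO groups were apart and the chimeric groups overlapped. The Pfkfb1 changes were -1.17 ± 0.17 (adjusted p = 0.0018) and 0.59 ± 0.13 (adjusted p = 8.3e-04), and the difference was 1.77 ± 0.22 (adjusted p = 3.86e-05). In SD rats the change was 0.05 (adjusted p = 0.897).

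Single amino acid and zonation genes had lower differences. Of 16 periportal genes 1 was higher and 2 were lower, with a median of -0.12 that became 0.12 under median scaling. Among all 10645 named genes tested 766 were higher and 537 lower, so these counts are not read as a result about the list. Hal, histidase, read from 6.17 through 6.60 to 7.35 in chimeric controls and from 5.28 through 5.69 to 6.10 on PB, with PB replicate 1 the lowest. CAR KO rats read 5.92, 5.94, 6.33 and 6.33 on control diet and 6.83, 6.43, 6.57 and 6.73 on PB. Neither pair of groups overlapped, and they moved in opposite directions, although the CAR KO change of 0.51 did not pass (adjusted p = 0.92). The Hal difference was -1.47 ± 0.28 (adjusted p = 0.00232), and -1.90 with slide as a block (adjusted p = 0.0194). Oat, ornithine aminotransferase of the pericentral zone, had a difference of -1.24 (adjusted p = 0.0337), lost in 5 of the 22 fits that left out 1 array with an adjusted p of up to 0.0784 and under median scaling. Pygl, liver glycogen phosphorylase, had a difference of -1.32 (adjusted p = 0.00314) with a change of -0.50 in PB replicate 1 and of -1.18 in the other 6. Neither Oat nor Pygl passed with slide as a block (adjusted p = 0.146 and 0.524). Glul, glutamine synthetase, had a difference of -1.11 (adjusted p = 0.103).

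Of 25 nuclear receptor and partner genes 1 had a higher and 2 a lower difference. Ahr, the dioxin receptor, was higher at 1.82 (adjusted p = 2.65e-04), with a rise of 1.34 in chimeric mice, and its adjusted p with slide as a block was 0.066. For Nr3c1, the glucocorticoid receptor, the probe used gave -1.45 (adjusted p = 0.00235) and another probe -0.17 (adjusted p = 0.721), so the probes disagree. Cyp2c11, the male-specific P450, had a difference of 1.26 (adjusted p = 0.00422, and 0.203 with slide as a block). Its CAR KO levels were 7.91, 7.91, 7.04 and 7.94 on control diet and 6.64, 6.89, 7.19 and 7.41 on PB. None of 22 acute phase genes passed, although their median change was -0.55 in PB replicate 1 and -0.12 in the others, and none of 15 bile acid genes did (Cyp7a1 1.60, adjusted p = 0.365). Nor did any of 4 AhR-responsive, 18 unfolded protein response or 12 circadian clock genes. Higher differences numbered 1 of 23 growth arrest and early growth genes, 1 of 18 growth hormone-dependent genes, 3 of 31 interferon-responsive genes and 1 of 15 metallothionein and retinoid or thyroid hormone genes, with no lower one in these lists. Glucose metabolism (23 genes) and the pericentral list (12 genes) each held 1 higher and 1 lower difference. Such small counts are not read as results about these lists, as 766 of all 10645 named genes tested were also higher and 537 lower.

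**Figure D3:**
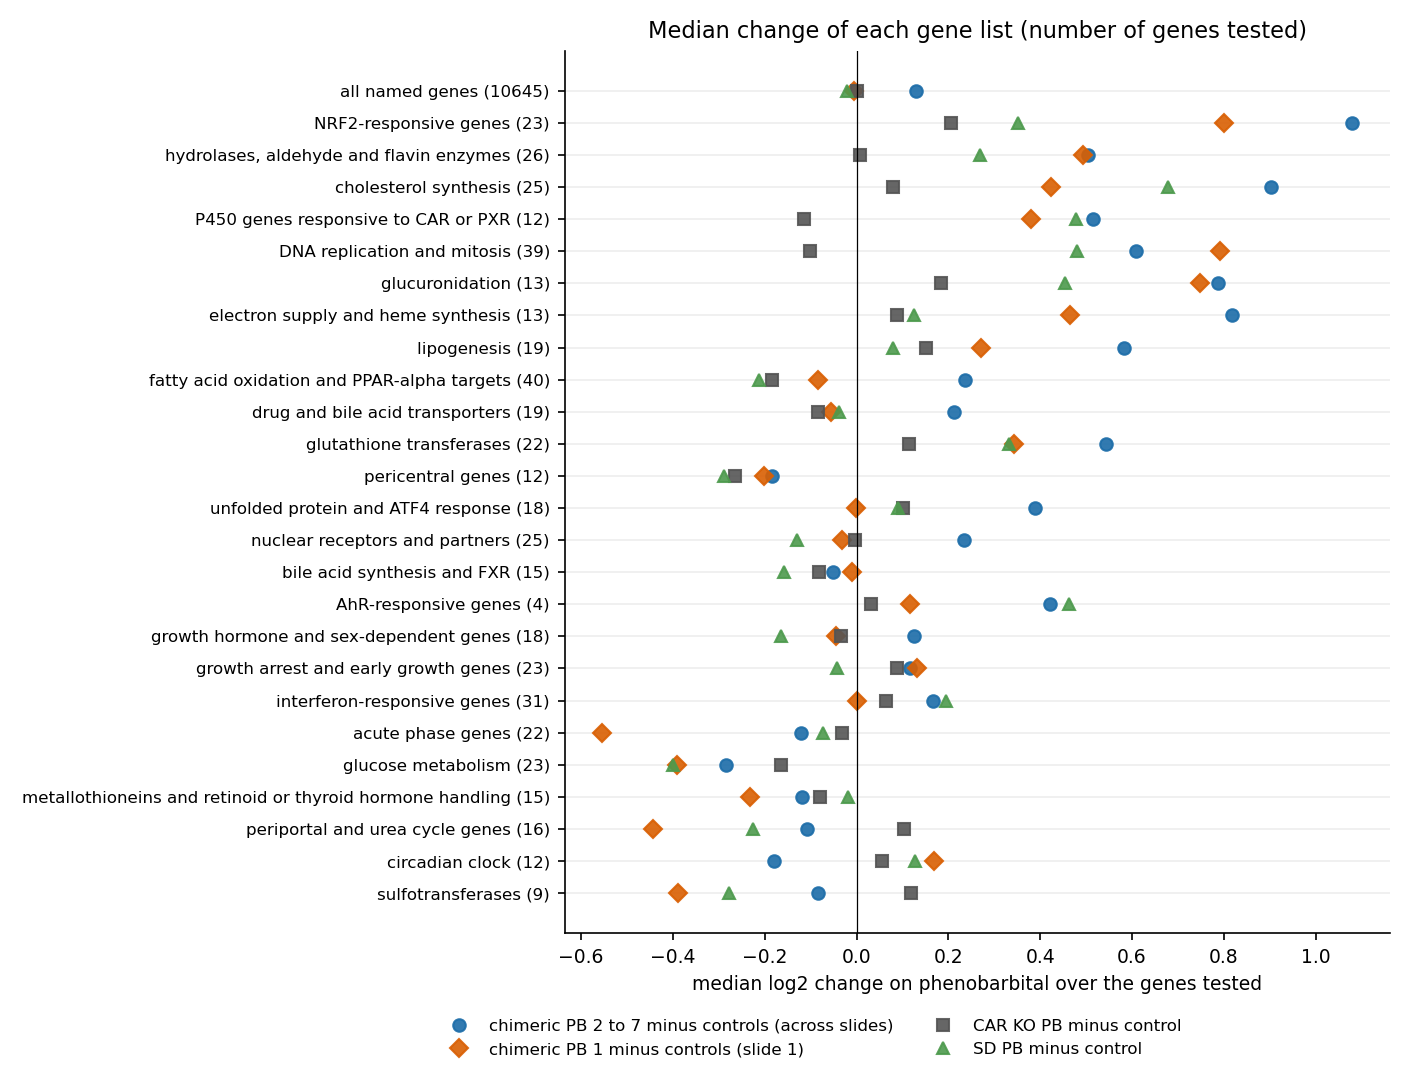
Median over the tested genes of each gene list of the change from the chimeric controls (log2) in PB replicate 1 and in PB replicates 2 to 7, of the CAR KO change and of the SD change. For the P450, glucuronidation and NRF2 lists both chimeric points lie above 0 while the CAR KO point lies closer to 0, at -0.11, 0.18 and 0.20.

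In most of the 12 lowest differences the low values lay on slide 2. Vsir, an immune checkpoint receptor, read from -1.71 through -1.49 to -1.26 in chimeric controls, -2.41 in PB replicate 1 and -7.11 to -6.09 in PB replicates 2 to 7. Its difference was -4.55 ± 0.78 (adjusted p = 0.00126) and, with slide as a block, -0.99 (adjusted p = 0.285). Fscn1, an actin-bundling protein, read -2.04 in PB replicate 1, within the controls at -2.11 to -1.61, and -6.88 to -5.43 in the other 6. Fscn1, Vsir, the transcriptional inhibitor Id3 and the class II antigen gene RT1-Da were well above background on all 7 chimeric controls, on PB replicate 1 and on no array of slide 2. Their differences were -3.93, -4.55, -3.86 and -3.32, and with slide as a block -0.58, -0.99, -0.62 and -0.69, none of which passed. RT1-Da read -2.59 to -1.73 in the controls, -3.18 in PB replicate 1, which lay under all 7 controls, and -7.08 to -5.50 in the other 6. Pcyox1l read 1.98 in PB replicate 1, against 2.08 to 2.71 in the controls and -1.26 to -0.73 in the other 6, a difference of -2.77 (adjusted p = 0.00384) that became -0.24. For Oxnad1 the difference of -2.84 (adjusted p = 0.0153) had the opposite sign, 0.39, with slide as a block (adjusted p = 0.929).

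Lrg1, Stac3 and Cldn1 were low in PB replicate 1 as well. Cldn1, a tight junction protein, had a change of -3.66 there and of -2.84 in the other 6, and a difference of -2.70 (adjusted p = 0.0434) that was lost in 18 of the 22 fits that left out 1 array, with an adjusted p of up to 0.0767. Stac3 changed by -3.11 in PB replicate 1 and by -2.89 in the others, for a difference of -3.22 (adjusted p = 0.00829, and 0.238 with slide as a block). The difference of Lrg1 was -3.45 (adjusted p = 0.0144) and that with slide as a block -2.70 (adjusted p = 0.55). Pcdh20, Hrh4 and Tlr12 had differences of -3.05, -3.0 and -2.71, and changes in PB replicate 1 of -1.03, -1.88 and -0.70 against -3.36, -3.49 and -3.34 in the others. On PB, 2 of 7 chimeric arrays measured Pcdh20, 1 of 7 Tlr12 and 5 of 7 Lrg1, so those sizes rest partly on signals below that mark.

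**Figure D4:**
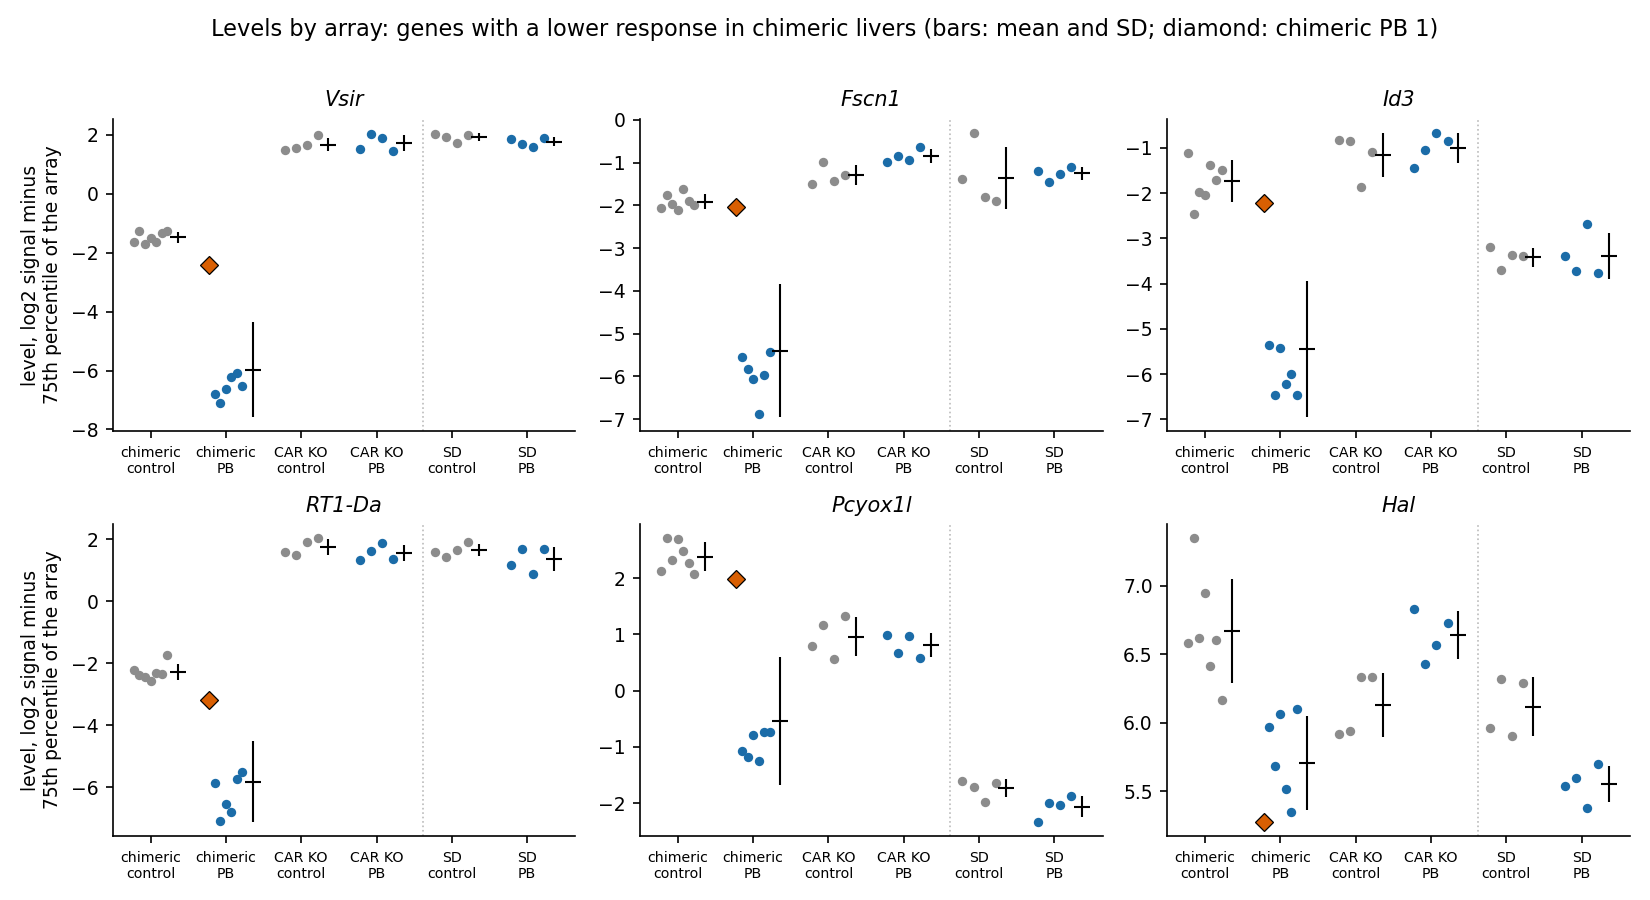
Levels (log2 processed signal minus the array's 75th percentile) of Vsir, Fscn1, Id3, RT1-Da, Pcyox1l and Hal, 1 point per array, by animal and diet, with chimeric PB replicate 1 as a diamond and bars for the mean and SD. For the first 5 genes the other 6 PB arrays lie far below PB replicate 1. That array lies within the chimeric controls for Fscn1 and Id3, and under all 7 of them for Vsir, RT1-Da and Pcyox1l. For Hal PB replicate 1 is the lowest of the 7 PB arrays.

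Summed levels of markers of other liver cells, which weigh the brightest genes most, differed in part between slides and diets. Lower differences numbered 2 of 15 macrophage and Kupffer cell, 1 of 11 T, NK and B cell and 1 of 7 cholangiocyte markers. Over all 10645 named genes tested the number was 537, so marker counts this small are not read as results about these cells. The median difference of the cholangiocyte markers was 0.11. The hepatocyte, endothelial, stellate cell and erythroid lists held no lower difference, and no marker list held a higher one. All 13 hepatocyte markers were well above background on every array. Their summed linear level was 3304 to 3650 in chimeric controls, 2584 in PB replicate 1 and 2530 to 3309 in PB replicates 2 to 7, and in CAR KO rats 3010 to 3204 on control diet and 2733 to 3169 on PB. The summed linear level of 11 T, NK and B cell markers was 0.872 to 1.11 in chimeric controls, 0.822 in PB replicate 1 and 0.408 to 0.626 in PB replicates 2 to 7, with 2 to 4 of the 11 well above background in chimeric mice. That of cholangiocyte markers was 15.1 to 23.1, 12.8 and 5.98 to 11.3 in the same order, and in CAR KO rats it was 18.3 to 22.8 on control diet and 11.3 to 16.9 on PB. Macrophage and Kupffer cell markers summed to 56.6 to 67.7, 52.3 and 40.1 to 62.2, with 8 to 10 of 15 well above background in chimeric mice and 14 to 15 in CAR KO rats. Stellate cell and fibroblast markers summed to 11.2 to 15.9 in chimeric controls, 14.1 in PB replicate 1 and 15.7 to 22.6 in the others. Erythroid markers summed to 253 to 502, 412 and 442 to 795 in that order, endothelial markers to 17.8 to 25.9, 17.7 and 15.9 to 21.4, and the 3 neutrophil markers, 2 of which had a lower difference, to 0.136 to 0.517, 0.167 and 0.103 to 0.191. The part of these cells in the differences was not tested.

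The SD arrays, which do not enter the difference, allow the calls to be read in other animals. The SD response had the sign of the difference for 10013 of 17048 genes tested in both (58.7%). Among higher differences this was so for 829 of 1029 (80.6%), and among lower ones for 829 of 1356 (61.1%). For the higher differences called in both fits it was 64 of 66 (97.0%), and for the lower ones 13 of 19. Fitted alone, the 8 SD arrays gave 184 changes among 17286 tested (1.06%), 130 higher (0.752%) and 54 lower (0.312%). Of the 128 that were higher in SD rats and tested here, 79 (61.7%) had a higher difference, and of the 52 that were lower, 7 (13.5%) had a lower one. Leaving out SD control replicate 1 reduced the 184 to 72.

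**Figure D5:**
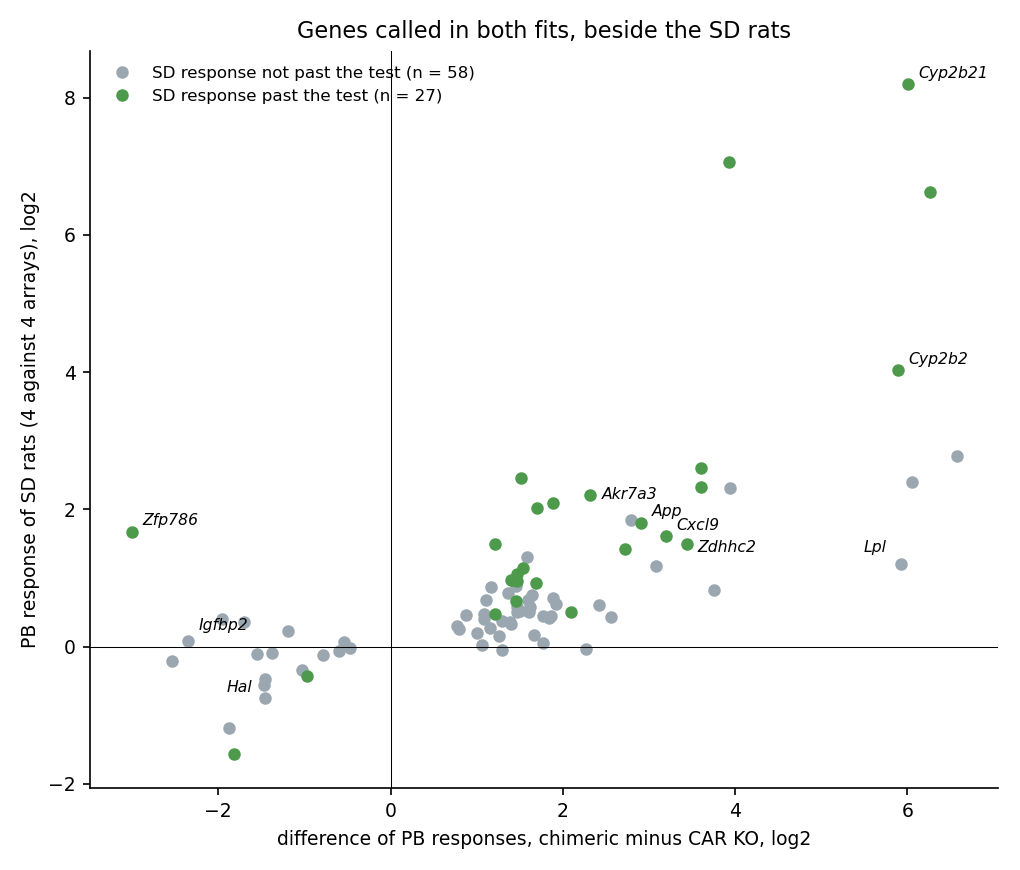
Difference of PB responses, chimeric minus CAR KO (log2), against the PB change in SD rats (log2) for the genes and transcripts called in both fits and tested in SD rats, with those past the SD test marked. Of 66 higher differences 64 lie on the side of a higher SD level, and of 19 lower ones 13 on the side of a lower one.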

How the data were processed

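Liver RNA of 30 male animals was read on 1-colour Agilent rat arrays. Per the file headers, Agilent Feature Extraction 10.7.3.1 made the deposited intensity values, which are processed signals subtracted for background within an array and not scaled between arrays. The authors' deposited series matrix holds log2 values, whose centring is not stated in the sources used here. It served as an alternative. Each deposited column was matched to its sample by the labels. Control spots (4259 of 62976) and outlier spots were left out, spots of a probe were averaged, and the processed signal was tested on a log2 scale centred on the 75th percentile of its array. Of 30367 probes, 18004 were named through RefSeq (assembly GRCr8, names only), and a symbol with several probes was represented by the one brightest on average in the 16 rat arrays.

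Probes well above background on at least 75% of the arrays of 1 group were tested (17981 of 27533) with limma 3.58.1 (lmFit, eBayes) in R 4.3.3, with the package data.table (version 1.17.8). The 22 arrays made 1 fit of 4 group means, and the 8 SD arrays another. Every adjusted p is limma's after Benjamini-Hochberg adjustment over all tested, with a threshold of 0.05, and errors of differences are standard errors. The fit without slide as a block was tested on simulated data that held no slide effect, so that test does not bear on slide. For a gene that no array of a group measured above background, only a bound is known in that group. The difference is given as "at least", from the higher of its own signal and the lowest signal well above background on that array, where a lower signal there would enlarge the difference, and with no size otherwise. Precision is limited by the number of arrays.

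The comparison and the gene and marker lists were chosen with earlier results of these data known. Genes are named for the 12 highest and 12 lowest differences with a size, for up to 4 per list with the smallest adjusted p, and from a set of PB-response genes. Gnmt, Igfbp2, Dio3, Nol3, Parp1, Usp2, Zfp786, Nat8, Nat8f2 and Nat8f5 were chosen after their values were seen. Alternatives were other scalings, normexp background correction (on the median signal, as the files give no mean signal), the matrix values, other filters, array weights, all 30 arrays in 1 fit, slide, row or replicate number as a block, and leaving out each array.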

Additional observations from a re-analysis of the deposited data

Results flagged for a closer look

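The PB response of chimeric mice and that of CAR KO rats differed by a test of the difference itself for 2530 of the genes and transcripts tested.

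Among 340 groups of arrays, taken over the 85 genes considered here, 23 (6.76%) held an array set apart from the rest of its group by Dixon's criterion. By chance the criterion marks about 1 in 20 groups of genes chosen without regard to their values. These 85 were chosen in part by their values, so the shares are not compared. The ratio given is the gap to the nearest other array over the range of the group. The marked array was chimeric PB replicate 1 in 9 of the 23. It was high for Vsir (0.785), Fscn1 (0.700), Id3 (0.740), RT1-Da (0.595), Oxnad1 (0.624) and Pcyox1l (0.839), and low for Mgst2 (0.668), Blvrb (0.579) and Itih3 (0.577). Vsir read -2.41 there against -6.09 in the next array, and Pcyox1l 1.98 against -0.73.

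Other chimeric arrays were marked in 7 groups. Among PB arrays, replicate 4 was low for Ces2c (0.572), and replicate 2 was high for Gpam (0.618) and low for App (0.569). Among controls, replicate 6 was low for Gpam (0.577) and Cldn1 (0.730), replicate 7 was high for RT1-Da (0.572), and replicate 4 was low for Gnmt (0.655).

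In CAR KO controls, replicate 3 was high for Ces2c (0.835) and low for Slc22a8 (0.857) and Cyp2c11 (0.964), and replicate 1 was low for Cldn1 (0.883) and high for Nat8f2 (0.852). In CAR KO rats on PB, replicate 3 was high for Gsta4 (0.929) and replicate 2 high for Gsr (0.928). Slc22a8 read 3.94 in the marked control against 5.43 in the next.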

How the results depend on the processing

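The difference of responses gave 2530 calls, and between 1944 and 3334 under other scalings, background correction, filters, probes, matrix values, trended eBayes or all 30 arrays in 1 fit. It gave 452 with slide as a random block (chimeric response 3559), 601 with row as a block (CAR KO 10), 134 with slide as a fixed block (chimeric response 346), 4012 with array weights by model (CAR KO 576) and 6434 with weights per array (CAR KO 704). The cause was not tested. The CAR KO count of 31 was 20 with normexp, 71 with no filter, 3 where every array had to measure the probe, and 0 in a fit of its own. The SD count of 184 was 336 with normexp, 3598 with no filter and 314 with trended and robust eBayes. Leaving out 1 array gave 1794 to 3941 for the difference, 7323 to 8528 for the chimeric response, 10 to 33 for CAR KO and 72 to 171 for SD.

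Replicate numbers paired the arrays at most in part. Same-numbered deviations correlated at -0.16 to 0.66 in chimeric mice and -0.18 to 0.07 in CAR KO rats. The same number was the best match for chimeric numbers 4, 5 and 6 (0.66, 0.38 and 0.20) and for CAR KO number 2 (0.07), and not for the others. With the replicate number as a block the difference gave 2952 calls, the chimeric response 8778, CAR KO 25 and SD 19.

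Of the 85 genes considered singly, 75 were called. Slide as a random block ended 20 of these calls, row as a block 21 and slide as a fixed block 49, where Oxnad1 also changed sign, to 0.39. The replicate block, normexp and median scaling ended 4, 3 and 3, quantile normalization, the matrix values, trended eBayes, weights per array and all 30 arrays none. Leaving out 1 array ended a call at least once for 8 genes. Ces2j, at an adjusted p of 0.0504, passed in 13 settings. Brightness over background limits what was read in chimeric livers, where fewer probes stood above it.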

Other observations

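Several genes called with and without slide as a block lay outside the gene lists, and those given here were chosen after their values were seen. Parp1, which adds ADP-ribose chains at DNA breaks, had a difference of 1.47 (adjusted p = 8.17e-05, and 0.0424 with slide as a block) and rose in SD rats by 0.95 (adjusted p = 0.0241). Nol3, an inhibitor of apoptosis, had a difference of 2.56 and the deubiquitinase gene Usp2 one of 1.59 (adjusted p = 1.33e-05 and 5.32e-05). The N-acetyltransferase 8 genes Nat8, Nat8f2 and Nat8f5 had differences of 2.10, 1.86 and 2.42 (adjusted p = 5.69e-04, 0.00159 and 0.00635). These 3 are related genes, and their probes may share signal, which was not tested. Of the chimeric controls 5 of 7 measured Nat8f5. In SD rats their changes were 0.50, 0.44 and 0.61 (adjusted p = 0.0499, 0.0572 and 0.0826).

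On the lower side, Gnmt, which uses S-adenosylmethionine to methylate glycine, read from 6.42 through 6.95 to 7.19 in chimeric controls and from 4.89 through 5.68 to 6.20 on PB, with PB replicate 1 the lowest. The groups did not overlap. Its difference was -1.46 (adjusted p = 0.00119) and -2.25 with slide as a block (adjusted p = 1.35e-04), and its change in SD rats was -0.47 (adjusted p = 0.152). Igfbp2, an insulin-like growth factor binding protein, had a difference of -2.35 and Dio3, which inactivates thyroid hormone, of -1.87 (adjusted p = 0.0133 and 0.0107). With slide as a block these were -3.51 and -2.91 (adjusted p = 0.0482 and 0.0238). Zfp786, a zinc finger gene, was well above background on all 4 CAR KO PB arrays and on no other of the 22 arrays. In SD rats 0 of 4 controls and 3 of 4 PB arrays measured it. It was tested only because of its level on CAR KO PB arrays, so its p is not given. Itih3, an acute phase gene, had a difference of -0.35 (adjusted p = 0.177) that was -0.89 with slide as a block (adjusted p = 0.0105).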
